A study of Rattus norvegicus with 6 samples.

Results

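The genes described here make fatty acids and triglycerides in the liver. They are Srebf1, Acly, Me1, Acaca, Fasn, Elovl6, Fads1, Fads2, Gpam and Dgat2. They were chosen by name, with earlier results of these data known. Each was matched to array probes through the RefSeq accession that the scanner files give. Of these 10 genes, among 15645 symbols matched on the array, 9 had a probe, 18 probes in all, and Srebf1 matched none. All 18 probes passed the filter on dim probes, 17 were well above background on all 6 arrays, and none of the 18 was saturated or carried an outlier flag on any array.

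Liver RNA was measured on 1-colour arrays in 6 male Sprague-Dawley rats that were 5 weeks old when purchased, with 1 array per rat. The labels give 3 rats corn oil, the vehicle, and 3 rats carbon tetrachloride (CCl4) at 100 mg/kg/day. CCl4 is a solvent that liver enzymes convert to reactive products and that is used to injure and scar rodent liver. The labels differ on the exposure, which is 28 days in the series design and 9 weeks in the treatment protocol, and they give no time of day or feeding state at sampling. All rats ate the same basal diet with water freely given. Values below are log2 signals relative to each array's 75th percentile, and a difference of 1 is a 2-fold difference. The 75th percentile was 583 to 676 signal units per array, 61.9% to 67.3% of probes were well above background, and all 10 hepatocyte markers examined were among the genes tested. All corn oil rats (n = 3) shared their slide with CCl4 replicate 1, while CCl4 replicates 2 and 3 were on another slide that was scanned apart. Once slide enters the model as a fixed block, the CCl4 side of the contrast is replicate 1 alone, so that those differences equal the ones within slide 1. A random block for slide keeps all 3 CCl4 arrays. The estimated correlation within a slide was -0.04, so that this block adjusts little for slide. As whole liver was measured, fewer cells of a type and less RNA per cell cannot be told apart.

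Hepatocytes turn surplus carbohydrate into fat. Citrate from mitochondria is cleaved to acetyl-CoA, carboxylated to malonyl-CoA and condensed with NADPH into palmitate, which is then elongated, desaturated and esterified to glycerol. The transcription factor SREBP-1c, a product of Srebf1, responds to insulin and the sterol receptor LXR and switches on many of these enzymes, together with the glucose-responsive factor ChREBP.

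The desaturase genes Fads1 and Fads2 encode desaturases of one family and lie near each other on chromosome 1, with 2 uncharacterised genes between them in the RefSeq table. Their RefSeq promoter windows, 250 bases before to 50 after the gene start, are shown so that both can be set beside the values below. Capitals mark a CCAAT box (CCAAT) or a GC box (GGGCGG), read on either strand. Fads1 is at chr1:216252442-216252741 on the plus strand of GRCr8 and Fads2 at chr1:216171984-216172283 on the minus strand, each printed 5′ to 3′ on its own strand.
Fads1: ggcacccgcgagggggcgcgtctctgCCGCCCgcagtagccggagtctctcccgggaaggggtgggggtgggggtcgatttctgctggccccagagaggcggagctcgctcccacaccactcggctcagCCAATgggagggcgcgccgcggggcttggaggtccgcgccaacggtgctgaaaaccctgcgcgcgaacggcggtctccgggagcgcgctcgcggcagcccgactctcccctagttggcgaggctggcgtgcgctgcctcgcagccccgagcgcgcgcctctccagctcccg
Fads2: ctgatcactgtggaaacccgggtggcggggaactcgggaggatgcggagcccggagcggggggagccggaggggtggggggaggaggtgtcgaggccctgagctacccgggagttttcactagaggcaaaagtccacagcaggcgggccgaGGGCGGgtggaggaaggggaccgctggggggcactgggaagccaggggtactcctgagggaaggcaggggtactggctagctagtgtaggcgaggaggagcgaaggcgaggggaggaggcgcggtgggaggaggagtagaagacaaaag

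The Fads1 window held 1 CCAAT box and 1 GC box, and the Fads2 window held 1 GC box and no CCAAT box. Among all 33469 promoter windows of 300 bases, 37.5% held a CCAAT box and 33.1% a GC box. In the promoter table, 6 of the 10 genes had a window (Acly, Fads1, Fads2, Gpam, Me1 and, with 2 windows, Srebf1). A CCAAT box stood in the windows of Acly, Fads1, Gpam and Srebf1, and a GC box in those of Acly, Fads1, Fads2, Me1 and Srebf1. The G and C content was 52.7% to 81.7% in these windows, against a median of 51.7% over all windows. The shares over all windows are thus not matched for base composition. The sterol regulatory element core TCACNCCAC (1.12% of all windows), its form CACCCCAC (2.70%) and the E-box CACGTG (6.42%), each searched on both strands, were in none of these 7 windows. The first and second of these motifs overlap in part. The array does not measure binding, and none of these matches is a known site from these data.

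Setting CCl4 beside corn oil addresses whether repeated exposure to the chemical altered expression of these genes in liver. Fasn had the largest difference, a 2.72-fold higher mean in CCl4 livers, and Acaca, Elovl6 and Fads1 were higher by 1.61-fold to 1.92-fold on their brightest probes. None of the 9 genes passed an adjusted p of 0.05 over all 11939 genes tested, where 76 genes (0.637%) did. Of the 9, 7 had a higher and 2 a lower mean in CCl4, with a median log2 difference of 0.45 against -0.05 for all genes tested, where 5113 were positive and 6826 negative. The median was 0.15 without CCl4 replicate 1, 0.69 without CCl4 replicate 3 and 0.84 with slide as a fixed block. The triglyceride synthesis genes Gpam and Dgat2 were the 2 with a lower mean. For 3 of the 9 genes, Fasn, Acaca and Fads1, the 3 CCl4 values all lay above the 3 corn oil values, and for none did they all lie below. Acaca is among them, and among the 7 with a higher mean, through 1 of its 2 probes, which is the brightest through its CCl4 values. On the other probe the groups overlapped and the difference had the opposite sign (-0.11). CCl4 values all lay above for 11.5% and all below for 15.9% of all genes tested. The same 3 genes had an unadjusted p below 0.05, as had 9.95% of all genes tested in the direction of higher in CCl4. Read probe by probe, 0 of 18 passed where 0.341% of all 40478 probes did, and on 5 the CCl4 values all lay above, as on 9.69% of all probes.

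**Figure D1:**
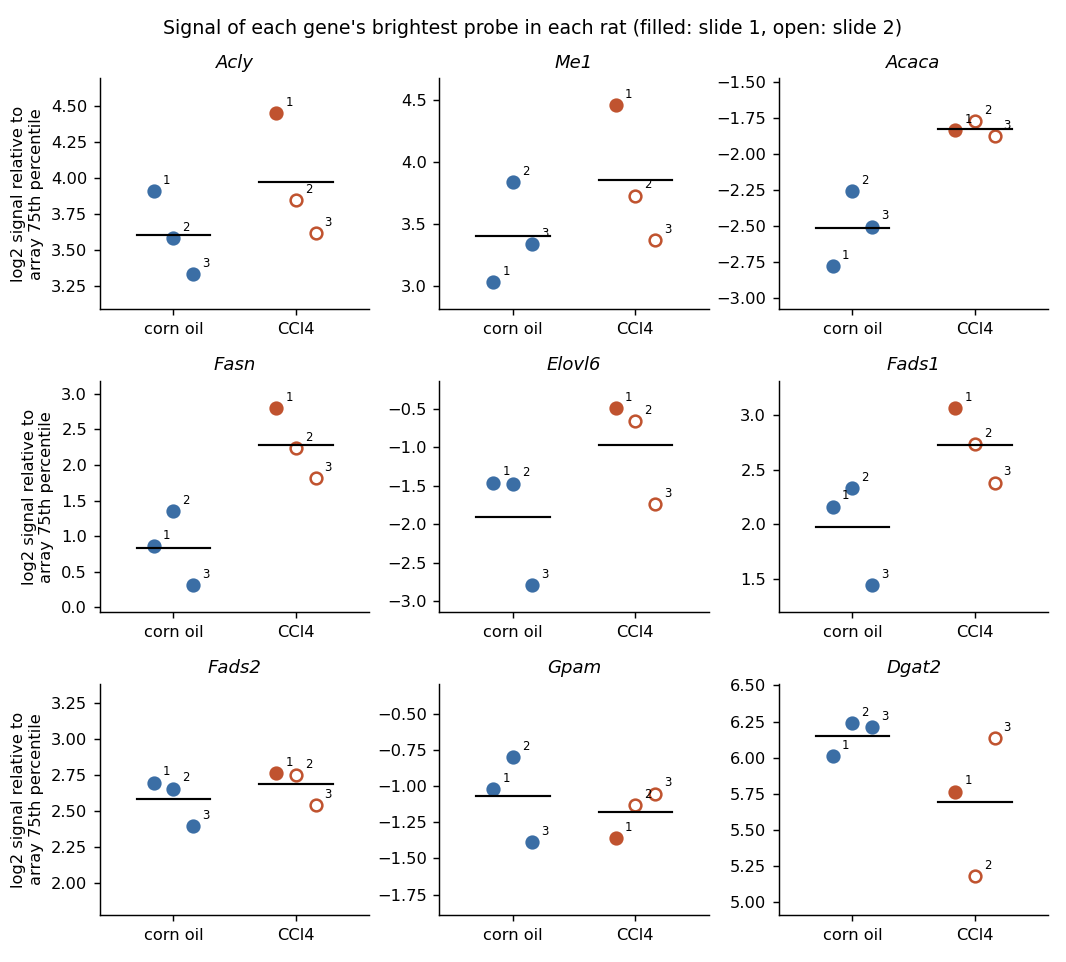
Log2 signal of the brightest probe of each gene relative to the array's 75th percentile (vertical axis, its own range in each panel) for 3 corn oil rats (blue) and 3 CCl4 rats (orange). Numbers are replicates, filled points are arrays on slide 1, open points arrays on slide 2, and bars are group means. Only Fasn, Acaca and Fads1 have groups that do not overlap.

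The first steps of the pathway supply its building blocks. Acly encodes ATP citrate lyase, which makes cytosolic acetyl-CoA from citrate. Its brightest probe read 3.91, 3.58 and 3.33 in the corn oil rats and 4.45, 3.85 and 3.61 in CCl4 replicates 1, 2 and 3. CCl4 replicate 1 was the highest of all, and the other CCl4 values lay within the corn oil range. The difference was 0.36 ± 0.25 (SE, n = 3 per group; adjusted p = 0.458), with a 95% interval of -0.25 to 0.98. Without CCl4 replicate 1 it was 0.12. The second probe of Acly gave 0.45.

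Me1 encodes the cytosolic malic enzyme, which makes NADPH. Its brightest probe read 3.03, 3.84 and 3.34 in corn oil and 4.46, 3.73 and 3.37 in CCl4, so that the groups overlapped and CCl4 replicate 1 was again the highest. The difference was 0.45 ± 0.33 (adjusted p = 0.475; interval -0.34 to 1.24), and it was 0.15 without CCl4 replicate 1. The other 2 probes gave 0.70 and 0.75, and on the latter, A_64_P136153, the groups did not overlap (adjusted p = 0.294 over 40478 probes).

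Acaca encodes acetyl-CoA carboxylase 1, which makes malonyl-CoA, the committed step of fatty acid synthesis. The brightest probe, A_64_P231828, read -2.78, -2.26 and -2.50 in corn oil and -1.83, -1.77 and -1.88 in CCl4. The CCl4 rats lay close together, above every corn oil rat. This probe stands for the gene through its CCl4 values: its mean processed signal was 105 units in corn oil and 181 in CCl4, against 118 and 119 for the other probe, so the choice of probe is not independent of the difference. The difference was 0.69 ± 0.15, or 1.61-fold (adjusted p = 0.0908; interval 0.32 to 1.05). The other probe, A_42_P489761, did not share it. It read -2.15, -2.37 and -2.46 in corn oil and -2.48, -2.39 and -2.44 in CCl4, a difference of -0.11 ± 0.12 (adjusted p = 0.690 over all probes). Acaca was the one gene of 7 with several probes whose probes differed in sign. In each array, the first probe minus the second was -0.63, 0.11 and -0.04 in corn oil and 0.64, 0.62 and 0.56 in CCl4, with group means 0.79 apart. The 2 groups did not overlap. Both probes were dim, with processed signals of 87.1 to 198 and 105 to 135 units. With normexp background correction the difference on the brightest probe was 0.40, and averaged over both probes it was 0.29. The files do not place either probe in the transcript, so the part of Acaca that each reads was not examined.

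Fasn encodes fatty acid synthase, the multifunctional enzyme that builds palmitate. Its brightest probe read 0.86, 1.36 and 0.31 in corn oil and 2.80, 2.24 and 1.81 in CCl4. The lowest CCl4 rat lay 0.46 above the highest corn oil rat. The difference was 1.44 ± 0.34, or 2.72-fold with an interval of 1.53-fold to 4.82-fold, and it did not pass (adjusted p = 0.102). The second probe read 0.23, 0.54 and -0.26 in corn oil and 2.16, 1.78 and 1.22 in CCl4. Its difference of 1.55 ± 0.30 (adjusted p = 0.102 over all probes) was close to that of the first, and the groups again did not overlap. Of all genes tested, 190 (1.59%) had a larger positive difference than Fasn. With slide as a fixed block Fasn was at 1.96 (adjusted p = 0.229, or 0.253 with slide 1 only), and with slide as a random block at 1.42 (adjusted p = 0.0970).

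**Figure D2:**
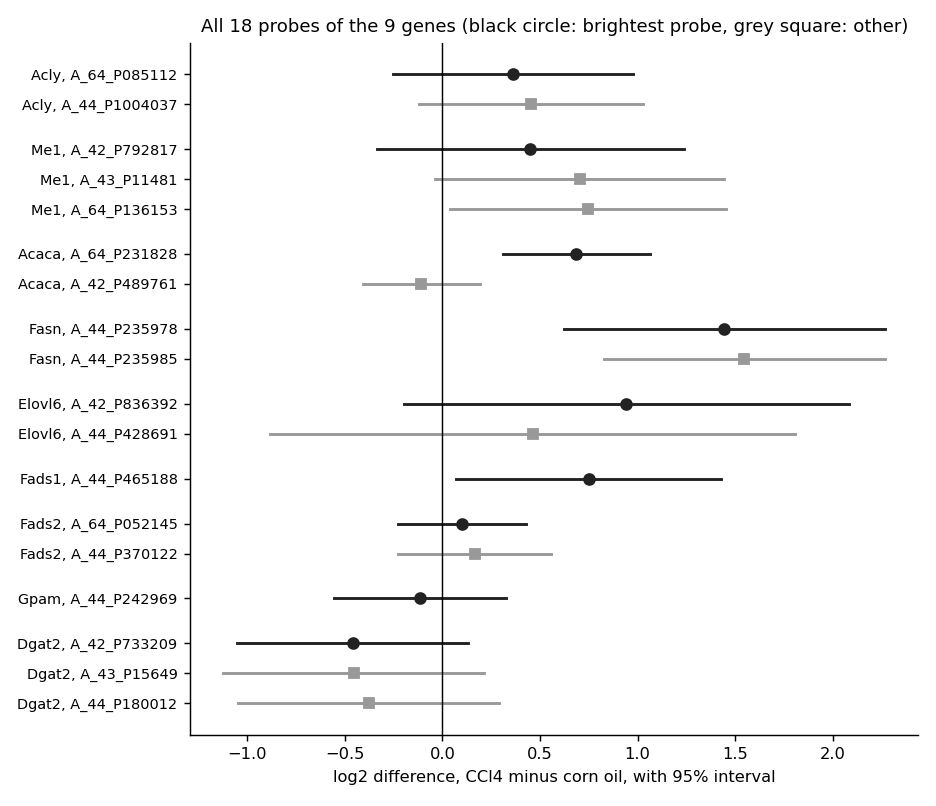
Log2 difference, CCl4 minus corn oil (horizontal axis), for each of the 18 probes, with the 95% interval from the limma fit over all probes. Black circles are each gene's brightest probe and grey squares its other probes. Both Fasn probes stand at 1.44 and 1.55, while the Acaca probes stand on opposite sides of 0.

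The next enzymes lengthen and desaturate the chain. Elovl6 encodes the elongase that takes palmitate to stearate. Its brightest probe read -1.46, -1.47 and -2.79 in corn oil and -0.49, -0.67 and -1.74 in CCl4. Corn oil replicate 3 and CCl4 replicate 3 were each far below the others of their group, and the groups overlapped. The difference was 0.94 ± 0.48 (adjusted p = 0.323; interval -0.21 to 2.09), and it was 0.50 without corn oil replicate 3. The second Elovl6 probe was well above background on 2 arrays of each group and gave 0.46.

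Fads1 encodes the delta-5 desaturase and Fads2 the delta-6 desaturase, which act in turn to make long polyunsaturated fatty acids. Fads1, on its 1 probe, read 2.16, 2.33 and 1.44 in corn oil and 3.06, 2.73 and 2.38 in CCl4. All CCl4 values were higher, the lowest by 0.05, and the difference of 0.75 ± 0.28 did not pass (adjusted p = 0.226; interval 0.07 to 1.43). Fads2 read 2.70, 2.65 and 2.39 in corn oil and 2.76, 2.75 and 2.54 in CCl4 on its brightest probe, with overlapping groups and a difference of 0.10 ± 0.13 (adjusted p = 0.685; interval -0.21 to 0.41). Its second probe gave 0.17. The log2 signal of Fads1 minus that of Fads2 was -0.54, -0.33 and -0.96 in corn oil and 0.30, -0.02 and -0.16 in CCl4. The group means of this contrast differed by 0.65 and the groups did not overlap. It and the contrast of the Acaca probes were chosen after their values were seen and are given as descriptions, with no test.

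Gpam and Dgat2 stand at the start and the end of triglyceride synthesis. Gpam encodes the mitochondrial glycerol-3-phosphate acyltransferase, which attaches the first fatty acid. It read -1.02, -0.79 and -1.39 in corn oil and -1.36, -1.13 and -1.05 in CCl4 on its 1 probe, with the CCl4 values inside the corn oil range. The difference was -0.11 ± 0.18 (adjusted p = 0.754; interval -0.55 to 0.32), and it turned to 0.02 without corn oil replicate 2. Dgat2 encodes diacylglycerol acyltransferase 2, which attaches the last. It read 6.01, 6.24 and 6.21 in corn oil and 5.76, 5.18 and 6.13 in CCl4. CCl4 replicates 1 and 2 lay below all corn oil rats, and CCl4 replicate 3 lay among them. The difference was -0.46 ± 0.24 (adjusted p = 0.343; interval -1.05 to 0.13), and the other 2 probes gave -0.46 and -0.38.

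Over the whole set, the rats of a group differed as much as the groups did for several genes. CCl4 replicate 1 was the highest of all 6 rats for 6 of the 9 genes (Acly, Me1, Fasn, Elovl6, Fads1 and Fads2). CCl4 replicate 3 was the lowest CCl4 rat for 7, all but Gpam and Dgat2. Relative to the corn oil mean, the median over the 9 genes was 0.84 in CCl4 replicate 1, 0.33 in replicate 2 and 0.02 in replicate 3. Among the corn oil rats, replicate 3 was the lowest for 6 genes and replicate 2 the highest for 6. Against the mean of the other 2 corn oil rats, the median was -0.41 for replicate 3, 0.41 for replicate 2 and 0.08 for replicate 1. CCl4 replicate 1, the highest, is also the CCl4 array that shared a slide with the corn oil arrays, and the part of the slide in this spread was not tested. With slide as a fixed block the differences were 0.84 for Acly, 1.06 for Me1, 0.68 for Acaca, 1.42 for Elovl6, 1.09 for Fads1, 0.18 for Fads2, -0.29 for Gpam and -0.39 for Dgat2, and no gene passed. A random block gave 0.34 for Acly, 0.42 for Me1, 0.69 for Acaca, 0.92 for Elovl6, 0.73 for Fads1, 0.10 for Fads2, -0.10 for Gpam and -0.46 for Dgat2, and again none passed.

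**Figure D3:**
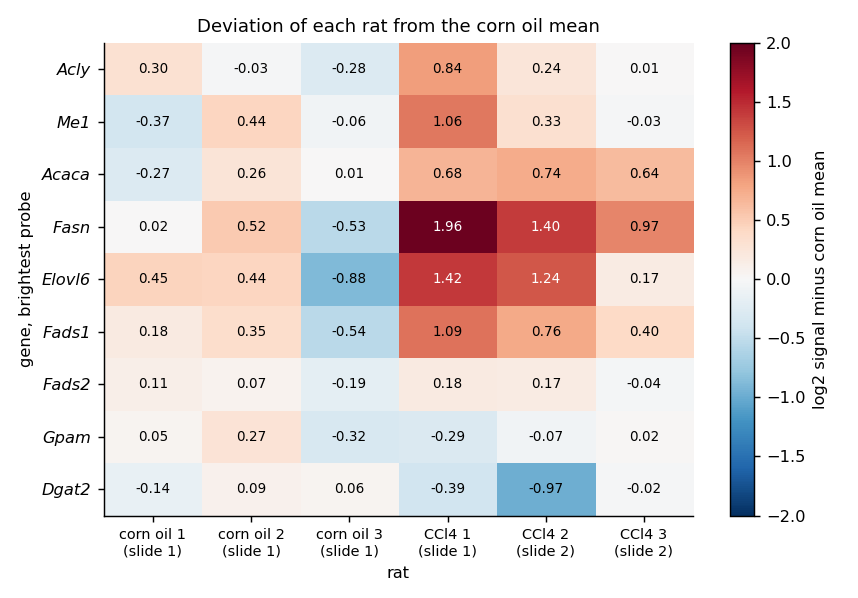
Log2 signal of each gene's brightest probe in each rat minus the corn oil mean of that gene, as colour and number (red above, blue below). Rows are genes and columns rats with their slide. CCl4 replicate 1 shows the highest values for 6 genes, up to 1.96 for Fasn, and CCl4 replicate 3 lies near 0 for Acly, Me1, Fads2, Gpam and Dgat2.

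The profile of Fasn over the 6 arrays was set beside those of all other genes tested, as a description. Among the other 8 genes, Fads1 was the most like it (r = 0.96, rank 66 of all genes). Elovl6 (r = 0.88, rank 492) and Acaca (r = 0.87, rank 632) followed. Me1 (r = 0.78, rank 1225), Acly (r = 0.77, rank 1291) and Fads2 (r = 0.72, rank 1561) came next. Gpam (r = -0.09) and Dgat2 (r = -0.62) did not follow Fasn. The r of Acaca is that of its brightest probe, and the other Acaca probe had a difference of -0.11. Among the genes nearest to Fasn were Triqk, Scarf2, Slc22a18 and Lgals1, with r of 0.99 each. These correlations rest on 6 arrays that share the contrast between the groups, and they carry no test.

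Related genes were examined in 5 lists, 105 genes in all, of which 92 were tested. Of the 92, 3 passed over all genes tested: Acsl3 and Me2 were higher and Insig2 was lower in CCl4. Of all genes tested, 0.637% passed, 0.561% as higher and 0.0754% as lower. Acsl3 encodes an acyl-CoA synthetase of the endoplasmic reticulum and lipid droplets. It read -0.59, -1.37 and -1.32 in corn oil and 0.58, 0.47 and 0.64 in CCl4, a rise of 3.16-fold (1.66 ± 0.22; adjusted p = 0.0441). Me2, the mitochondrial malic enzyme, read -2.38, -2.06 and -2.19 in corn oil and -1.40, -1.37 and -1.36 in CCl4, a rise of 1.78-fold (0.83 ± 0.12; adjusted p = 0.0462). In both genes the CCl4 rats lay together, as for Acaca on its brightest probe and unlike the spread seen for Fasn. Passing the test favours genes with a small spread, so this closeness is no separate result. Insig2, which holds SREBP precursors in the endoplasmic reticulum, read 5.47, 5.59 and 5.52 in corn oil and 4.55, 4.62 and 4.74 in CCl4, and fell by 0.89 ± 0.10 (adjusted p = 0.0256). With slide as a fixed block the differences of Acsl3, Me2 and Insig2 were 1.68, 0.81 and -0.98, and none passed (adjusted p = 0.216, 0.229 and 0.188). All 3 passed with slide as a random block (adjusted p = 0.0386, 0.0404 and 0.0227). With a correlation of -0.04 that block adjusted little for slide, and the second slide held CCl4 arrays only. The part of the slide in these differences was not tested. With normexp background correction Me2 was at 0.55 and did not pass (adjusted p = 0.0598). When each array was left out in turn, Acsl3 passed only without corn oil replicate 1 (adjusted p = 0.0175), Insig2 only without CCl4 replicate 3 (0.0341), and Me2 in no case.

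Among genes that supply acetyl-CoA and NADPH, 1 of 12 tested rose (Me2) and none fell, with 6 positive and 6 negative differences and a median of 0.00. Acss2, which makes acetyl-CoA from acetate, was at -0.10 ± 0.23 (adjusted p = 0.849).

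Of the 20 other fatty acid synthesis, elongation and desaturation genes tested, 1 rose (Acsl3) and none fell, with 11 positive and 9 negative differences and a median of 0.06. Thrsp, the thyroid hormone-responsive Spot 14 protein of lipogenic tissues, read 2.12, 1.80 and 1.36 in corn oil and 3.66, 2.49 and 2.91 in CCl4 (1.26 ± 0.33; adjusted p = 0.127). Scd, the stearoyl-CoA desaturase, read 2.27, 2.85 and 4.35 in corn oil and 4.03, 3.79 and 4.70 in CCl4. Corn oil replicate 3, the lowest corn oil rat for Fasn, was the highest for Scd, and the difference was 1.02 ± 0.54 (adjusted p = 0.346). Acacb, the mitochondrial acetyl-CoA carboxylase, was at 0.34 ± 0.20 (adjusted p = 0.384). In the other direction stood Elovl2, an elongase of polyunsaturated fatty acids named after its values were seen, at -0.81 ± 0.21 (adjusted p = 0.118).

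Other glycerolipid synthesis genes gave 0 of 17 past the threshold, 8 positive and 9 negative, with a median of -0.12. Dgat1, the other enzyme of the last step, was at -0.29 ± 0.11 (adjusted p = 0.236) and the groups did not overlap. Lpin1, a phosphatidate phosphatase, was at 0.51 ± 0.40 (adjusted p = 0.507), and Agpat2, which adds the second fatty acid, at -0.34 ± 0.28 (adjusted p = 0.519).

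Genes of lipid droplets, lipolysis and triglyceride export also gave 0 of 15 past the threshold, with 2 positive and 13 negative and a median of -0.32. Plin2, a lipid droplet coat protein, was at -0.19 ± 0.11 (adjusted p = 0.362). Mttp, which loads lipid onto apolipoprotein B, was at -0.32 ± 0.13 (adjusted p = 0.245) on the brightest of its 2 probes. The other Mttp probe gave -0.06, and the mean of both gave -0.19. Pnpla3 matched no probe.

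Of 28 regulators tested, 1 fell (Insig2) and none rose, with 7 positive and 21 negative and a median of -0.19. Insig1, a target of SREBP as well as its retention factor, read 5.64, 5.49 and 4.56 in corn oil and 6.43, 5.99 and 6.0 in CCl4 (0.91 ± 0.31; adjusted p = 0.192). Pklr, the liver pyruvate kinase that ChREBP controls, was at 0.46 ± 0.19 (adjusted p = 0.256). The transcription factor genes Srebf2 (0.21 ± 0.13; adjusted p = 0.410), Mlxipl, which encodes ChREBP (-0.04 ± 0.15; adjusted p = 0.910), and Nr1h3, which encodes LXR alpha (-0.12 ± 0.13; adjusted p = 0.639), had overlapping groups. With slide as a fixed block Mlxipl was at 0.19 and Nr1h3 at 0.02, and with slide as a random block at -0.05 and -0.12.

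**Figure D4:**
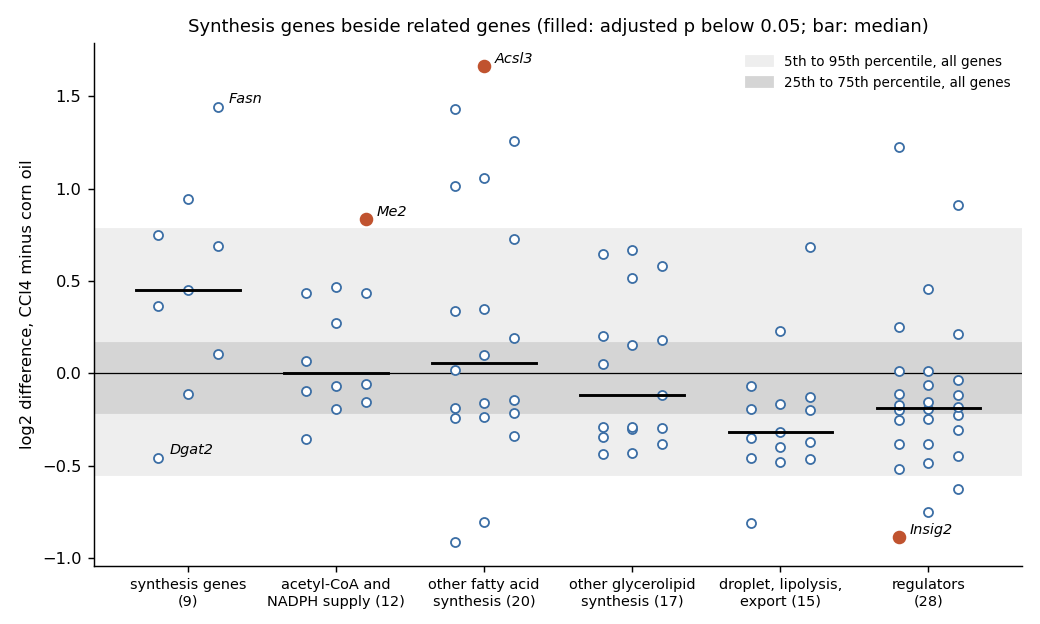
Log2 difference, CCl4 minus corn oil (vertical axis), for the 9 synthesis genes and the genes tested in 5 lists of related genes (horizontal axis, number tested in brackets). Filled points passed an adjusted p of 0.05 over all genes, black bars are medians, and the bands give percentiles of all genes tested. The median of the synthesis genes is 0.45 and that of the droplet, lipolysis and export list is -0.32.

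Markers of the cell types that whole liver can hold were read beside these values. All 10 hepatocyte markers had a lower mean in CCl4 (median -0.26, with 0 past the threshold), and their summed linear signal was 5724 to 5975 times the array's 75th percentile in corn oil and 4728 to 5164 in CCl4. Adipocytes also express these enzymes. Their defining markers Adipoq and Lep were not well above background on any array, Plin1 matched no probe, and the sum over the list was 28.6 to 46.6 in corn oil and 18.8 to 39.9 in CCl4. Cidec, Cfd, Pnpla2, Lipe and Car3 of the same list were well above background on all 6 arrays. Of the 7 adipocyte markers tested, 1 rose, the fatty acid carrier gene Fabp4 (4.09 ± 0.35; adjusted p = 0.0171), which macrophages express too, and whose probe stood well above background in only 2 of the 3 corn oil rats. Plin1, Cidec, Pnpla2 and Lipe of this list also stand in the list of droplet, lipolysis and export genes. Of 15 macrophage markers 3 rose (Trem2, Gpnmb and Lgals3), with a median of -0.23 and sums of 197 to 238 in corn oil and 220 to 259 in CCl4. Stellate cell and myofibroblast markers had a median of 0.24 (0 of 9 past the threshold; sums 41.2 to 49.9 and 54.9 to 79.3). Bile duct markers had a median of 0.26 (0 of 6; sums 1.79 to 2.07 and 2.19 to 4.97). Endothelial markers had a median of 0.05 (0 of 4; sums 40.3 to 47.3 and 32.6 to 39.1). Of 8 lymphocyte markers 1 fell, Gzma, with a median of 0.06 and sums of 4.38 to 5.85 and 4.04 to 4.35. The part of these cell types in the values of the synthesis genes was not tested.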

How the data were processed

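Cy3-labelled liver RNA of 3 corn oil and 3 CCl4 rats was hybridised to 1-colour Agilent arrays, 1 per rat, and the labels count the rats as separate animals. The deposited processed signal is an intensity that Feature Extraction had background-subtracted and detrended, per the file headers (version 10.7.1.1; 10.7 per the submitters' processing notes), on a design built for rn4. A second deposited table gives that signal as a linear ratio to a constant per array of 583.3 to 676.5 units (medians 0.103 to 0.110). The constant was found by setting the authors' values against the scanner values, with a deviation of at most 0.00503%. On each array it lay slightly above the 75th percentile of the processed signal (582.6 to 675.6 units). How the constant was chosen is not given in the sources used here.

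From 61537 probes other than 1439 control spots, 26 with an outlier flag on any array were left out, and log2 signals were taken relative to the 75th percentile of their array. RefSeq accessions gave 28206 probes a symbol and left 33331 unnamed. Probes well above background on at least 3 of 6 arrays were kept, and the brightest probe stood for a gene (11939 genes). CCl4 was compared with corn oil by limma 3.58.1 (lmFit and eBayes, two-sided, R 4.3.3) with Benjamini-Hochberg adjustment over all genes, or over all 40478 probes in a second fit, at a threshold of 0.05; SE, 95% intervals and adjusted p-values in the text are from these fits, gene level unless said. The fit was tested on simulated data. The number of arrays, 3 per group, limits the precision.

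The synthesis genes and lists were chosen with earlier results of these data known. All 10 are named with every probe; from each list up to 2 genes per direction past the threshold were named, with a fixed set of key genes whatever their result, and the 5 genes most like Fasn. A few genes that this rule names are not reported here. Alternatives were quantile, median and normexp processing (offset 50, on the median signal because no mean signal column was there), the deposited ratios, 2 other filters, probe means, a variance trend, slide 1 only, a block for slide (fixed, then random), a replicate block and each array left out. Promoter windows are from RefSeq (GRCr8) and were matched by symbol.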

Additional observations from a re-analysis of the deposited data

How the results depend on the processing

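Under 18 alternatives none of the 9 synthesis genes passed (smallest adjusted p = 0.0764, Acaca with probes well above background on all 6 arrays). Of 162 differences 161 kept their sign, with Fasn between 1.18 and 1.96, Acaca between 0.29 and 0.81, Fads1 between 0.48 and 1.09 and Dgat2 between -0.68 and -0.20. The exception was Gpam, 0.022 without corn oil replicate 2 (range -0.27 to 0.022 over the arrays left out). Not all 162 were separate checks: the 2 other filters, the variance trend and the replicate block left the 9 differences as they were. The deposited ratios nearly repeated these differences (Fasn 1.44 in both), and median scaling shifted every gene by the same amount. A fixed block for slide and slide 1 only gave the same differences as each other. The count of all genes past the threshold, 76, was 217 with normexp, 139 with probes well above background on all arrays, 156 with a variance trend, 4 with slide as a fixed block and 0 on the first slide alone by limma (1598 at an unadjusted p below 0.05); leaving out 1 array gave 2 to 241. Of the 3 calls in the related lists, 1 was left without a filter on dim probes (Insig2) and 0 with slide as a fixed block or on the first slide alone. With 1 array left out, 0 to 2 genes of these lists passed, of which at most 1 was among the 3; the 2 were Insig2 and G0s2, without CCl4 replicate 3. With normexp Me2 did not pass, and Agpat4 and Mid1ip1 did (G0s2, Agpat4 and Mid1ip1 were named after their values were seen). Acss2 turned to 0.16, Mlxipl to 0.19 and Nr1h3 to 0.016 with slide as a fixed block and on the first slide alone; with slide as a random block all 3 stayed negative, and 105 genes passed. With 1 array left out, Acss2 ranged from -0.30 to 0.11 (positive without corn oil replicate 1), Mlxipl from -0.15 to 0.048 (positive without corn oil replicate 1, CCl4 replicate 2 or CCl4 replicate 3) and Nr1h3 from -0.18 to 0.00084 (positive without CCl4 replicate 2). The cause was not tested.

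With the replicate number as a block, 10 genes passed and 0 in the related lists. Rats with the same number deviated together weakly (r = -0.05, 0.16 and 0.02), and not every rat correlated best with its own number, so the numbers were not taken to pair the rats. The second Elovl6 probe was not well above background on every array, which limits what its value shows.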
